A study of Homo sapiens with 6 samples.

Results

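Nucleolar ribosome biogenesis genes encode the proteins that build ribosomes in the nucleolus: snoRNP proteins, processing factors of the small and large subunit, and nucleolar chaperones. The 48 genes were taken by name from a list chosen with earlier results of these data known. Each matched 1 gene of the 50868 in the deposited table. They were divided by textbook role into 7 steps of ribosome assembly. The RNA came from CUTLL1 cells, a human line of T-cell acute lymphoblastic leukaemia (T-ALL), that were infected with a lentivirus carrying a short hairpin RNA (shRNA) and kept under puromycin for 48 h. The shAURKB arm received an shRNA against AURKB, the gene of the mitotic kinase Aurora B, and the shGFP arm a control shRNA. There were 3 libraries per arm, which the study calls biological replicates, and both arms were infected and selected. The labels do not say how many shRNAs against AURKB were used, so an effect of the target and of a single hairpin cannot be told apart.

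Ribosome assembly begins on the ribosomal RNA precursor that RNA polymerase I transcribes in the nucleolus. Box C/D and box H/ACA snoRNPs carry guide RNAs and modify this precursor by 2'-O-methylation and pseudouridylation. The U3 snoRNP and the small-subunit processome cut out the 18S rRNA, while other factors fold and trim the large-subunit rRNAs until the particles are exported. MYC is known to raise the transcription of many of these genes, often through the E-box sequence CACGTG near their starts, and the title of the series concerns stabilisation of MYC by Aurora B.

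Total counts ran from 10446722 to 11641019 in the 3 shAURKB libraries and from 10154187 to 11922979 in the 3 shGFP libraries. Levels are given in CPM, the TMM-scaled count relative to library size. The CPM of the cell-type markers, COL1A2 included, are not TMM-scaled. AURKB itself averaged 39.9 ± 3.93 CPM in shAURKB cells and 101 ± 5.1 CPM in shGFP cells (SD, n = 3 each), or 39.3% of the control level (edgeR adjusted p = 2.54e-04). MYC mRNA was at 12.5 ± 4.33 CPM in shAURKB cells and 11.6 ± 1.23 CPM in shGFP cells, a difference that was not called (edgeR adjusted p = 0.778). Of 14 markers of a T-cell leukaemia line all had counts, and their sum was 3774 to 4081 CPM in shAURKB libraries and 3939 to 4138 CPM in shGFP libraries. Among 25 markers of B cells, monocytes, fibroblasts, epithelia and erythroid cells, 12 were at 0 in every library, and the sum of all 25 was 24.4 to 30.9 CPM in shAURKB libraries and 27.4 to 56.4 CPM in shGFP libraries. The epithelial markers summed to 0.463 to 1.03 CPM in shAURKB libraries and 0.591 to 9.31 CPM in shGFP libraries. The highest sum of all 25 lay in shGFP replicate 1, where the collagen gene COL1A2 alone held 17.8 CPM. The part of these markers in the results below was not tested, and the results are also given without that library. In bulk RNA, more cells with a high level and more RNA per cell cannot be told apart.

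The promoters were searched for the E-box as a description. RefSeq sequences of GRCh38.p14 held a promoter window for 40 of the 48 genes. It ran from 250 bases before to 50 bases after the start, on the strand of the gene. Some genes had windows at more than 1 start, with 48 windows over the 40 genes. A gene was counted if any of its windows held the motif. The E-box CACGTG, which reads the same on both strands, was found in 19 of the 40 genes (47.5%). Among 90 other ribosome biogenesis genes with a window, described further below, it was found in 27.8%. Among the 7261 other tested genes with at least 10 CPM and a window it was found in 13.2%, and among all 27305 genes with a window in 8.77%. In all 19 genes the E-box nearest to a start, over all windows of the gene, lay between -31 and 43. Positions count the first transcribed base as 1 and are those of the motif's first base. Of the 955 E-box genes among the other tested genes, 42.7% had 1 within 50 bases of a start. The variant CACGCG, searched on both strands as CACGCG and CGCGTG, was found in 30% of the 40 genes. Its share was higher, 34.4%, in the 90 other ribosome biogenesis genes. It was 23.9% in the 7261 genes and 13.5% in the 27305. These are matches of letters, and MYC binding was not measured.

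The E-box (capitals) with up to 20 bases on each side is shown for the 5 genes with the largest rise among those that hold it. A shorter run ends at the edge of the window. The runs lie on the minus strand at chr3:51941884-51941929 (RRP9), chr17:4555335-4555377 (MYBBP1A), chr22:30591872-30591917 (PES1) and chr1:43172241-43172268 (EBNA1BP2), and on the plus strand at chr9:4792928-4792973 (RCL1). The motif starts at -5, 28, 14, 43 and 5 in that order. EBNA1BP2 also had a window at another start, with an E-box at -237.
RRP9: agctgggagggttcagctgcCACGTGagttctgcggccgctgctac
MYBBP1A: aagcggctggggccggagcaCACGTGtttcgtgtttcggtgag
PES1: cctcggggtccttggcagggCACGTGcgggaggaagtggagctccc
EBNA1BP2: gcgctggagcgattcggtggCACGTGga
RCL1: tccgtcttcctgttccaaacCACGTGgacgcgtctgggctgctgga

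The E-box was also present in 5 of the 6 genes with a window that did not pass the test, shown here for contrast. They lie on the minus strand at chr19:39846348-39846393 (FBL), chr15:34343122-34343167 (NOP10), chr12:6568242-6568276 (NOP2) and chr19:41397320-41397365 (EXOSC5), and on the plus strand at chr6:41921507-41921548 (BYSL). The motif starts at 7, -11, 36, 15 and 29 in that order. Among the 34 genes that rose and had a window, 14 held an E-box.
FBL: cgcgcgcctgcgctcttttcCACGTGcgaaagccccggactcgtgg
NOP10: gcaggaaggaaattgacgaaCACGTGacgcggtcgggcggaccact
NOP2: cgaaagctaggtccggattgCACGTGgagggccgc
EXOSC5: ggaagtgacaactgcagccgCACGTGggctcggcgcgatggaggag
BYSL: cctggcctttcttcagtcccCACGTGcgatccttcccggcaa

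The whole window of RRP9, the gene with the largest rise, is given with its E-box in capitals, beside that of NCL, the gene with the most counts of the 48, which rose and has neither motif in this window. Both are on the minus strand, at chr3:51941855-51942154 and chr2:231464435-231464734.
RRP9: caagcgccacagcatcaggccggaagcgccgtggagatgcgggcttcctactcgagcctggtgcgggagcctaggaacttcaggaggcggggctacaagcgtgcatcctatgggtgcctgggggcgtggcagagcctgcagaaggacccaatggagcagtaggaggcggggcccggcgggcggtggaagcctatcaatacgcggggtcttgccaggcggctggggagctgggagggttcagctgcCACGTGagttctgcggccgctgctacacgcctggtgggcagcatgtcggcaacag
NCL: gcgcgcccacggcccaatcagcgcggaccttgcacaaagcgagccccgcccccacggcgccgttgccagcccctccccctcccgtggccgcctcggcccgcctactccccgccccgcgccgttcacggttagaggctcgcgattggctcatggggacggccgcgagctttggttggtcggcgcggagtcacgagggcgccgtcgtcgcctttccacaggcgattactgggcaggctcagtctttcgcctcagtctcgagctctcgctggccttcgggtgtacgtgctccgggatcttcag

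**Figure D1:**
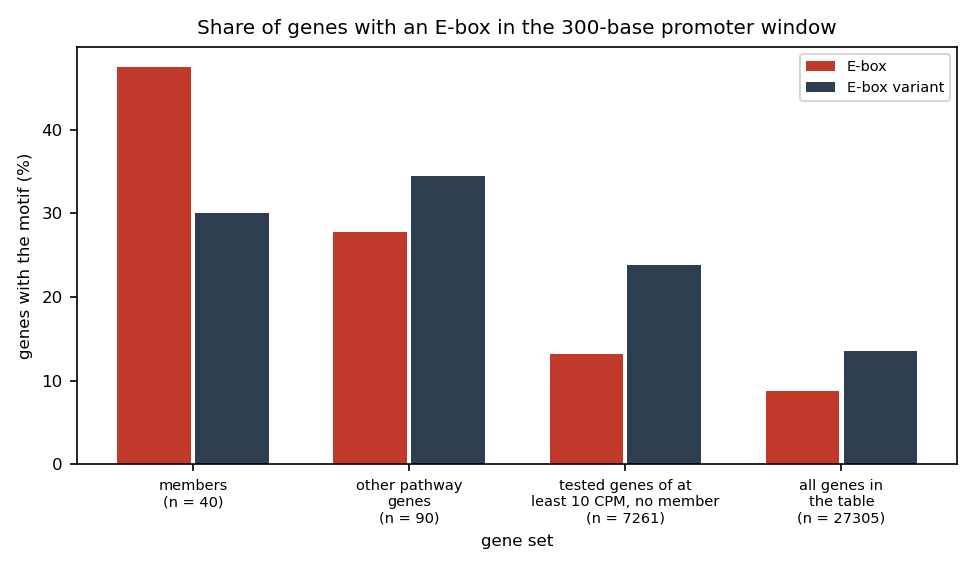
Share of genes (%) with the E-box CACGTG or its variant CACGCG on either strand in any of their 300-base promoter windows. The sets are the 40 nucleolar genes with a window, 90 other ribosome biogenesis genes, 7261 other tested genes of at least 10 CPM and all 27305 genes with a window. The E-box share is 47.5% in the nucleolar genes, 27.8% in the other biogenesis genes and 13.2% in the other tested genes. The variant share is 30%, 34.4% and 23.9% in the same order.

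AURKB knockdown was accompanied by a broad, small rise of nucleolar genes. All 48 passed the filter on low counts, with at least 159 reads in every library. At a Benjamini-Hochberg adjusted p below 0.05 over 14818 tested genes (edgeR quasi-likelihood test), 41 rose, none fell and 7 were not called. By the same rule 12.5% of all tested genes rose and 10.9% fell, and 17.9% of the 9891 tested genes with a mean of at least 10 CPM rose. The median log2 fold change of the 48 was 0.45 (1.37-fold), against a median of -0.0042 over all tested genes and 0.04 over those with at least 10 CPM. Changes ran from 0.05 to 0.76, so none reached 2-fold. In 43 genes every shAURKB library lay above every shGFP library, which held for 21.7% of tested genes.

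The rise touched genes at high and at lower levels among the 48, whose values ran from 15.4 to 1768 CPM over all libraries. Together the 48 genes took 0.9999% to 1.01% of all counts in shAURKB libraries and 0.772% to 0.787% in shGFP libraries. NCL and NPM1 made up 16.1% to 17.3% and 10.1% to 10.2% of the 48 genes' counts in shAURKB libraries, and 16.9% to 17.5% and 9.04% to 9.37% in shGFP libraries. Without NCL and NPM1 the share of all counts was 0.726% to 0.743% in shAURKB libraries and 0.565% to 0.581% in shGFP libraries. Across the 48 genes the log2 fold change had little relation to the mean level (Spearman's rho -0.08, with all genes from the same libraries), whereas over all 14818 tested genes rho was 0.29. With cyclic loess normalization, which removes a trend of the fold change on abundance, 37 of the 48 rose against 9.45% of all tested genes. Upper-quartile scaling gave 37 risers against 8.94%, and it gave 1325 higher and 2087 lower over all genes, against 1847 higher and 1609 lower with TMM.

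**Figure D2:**
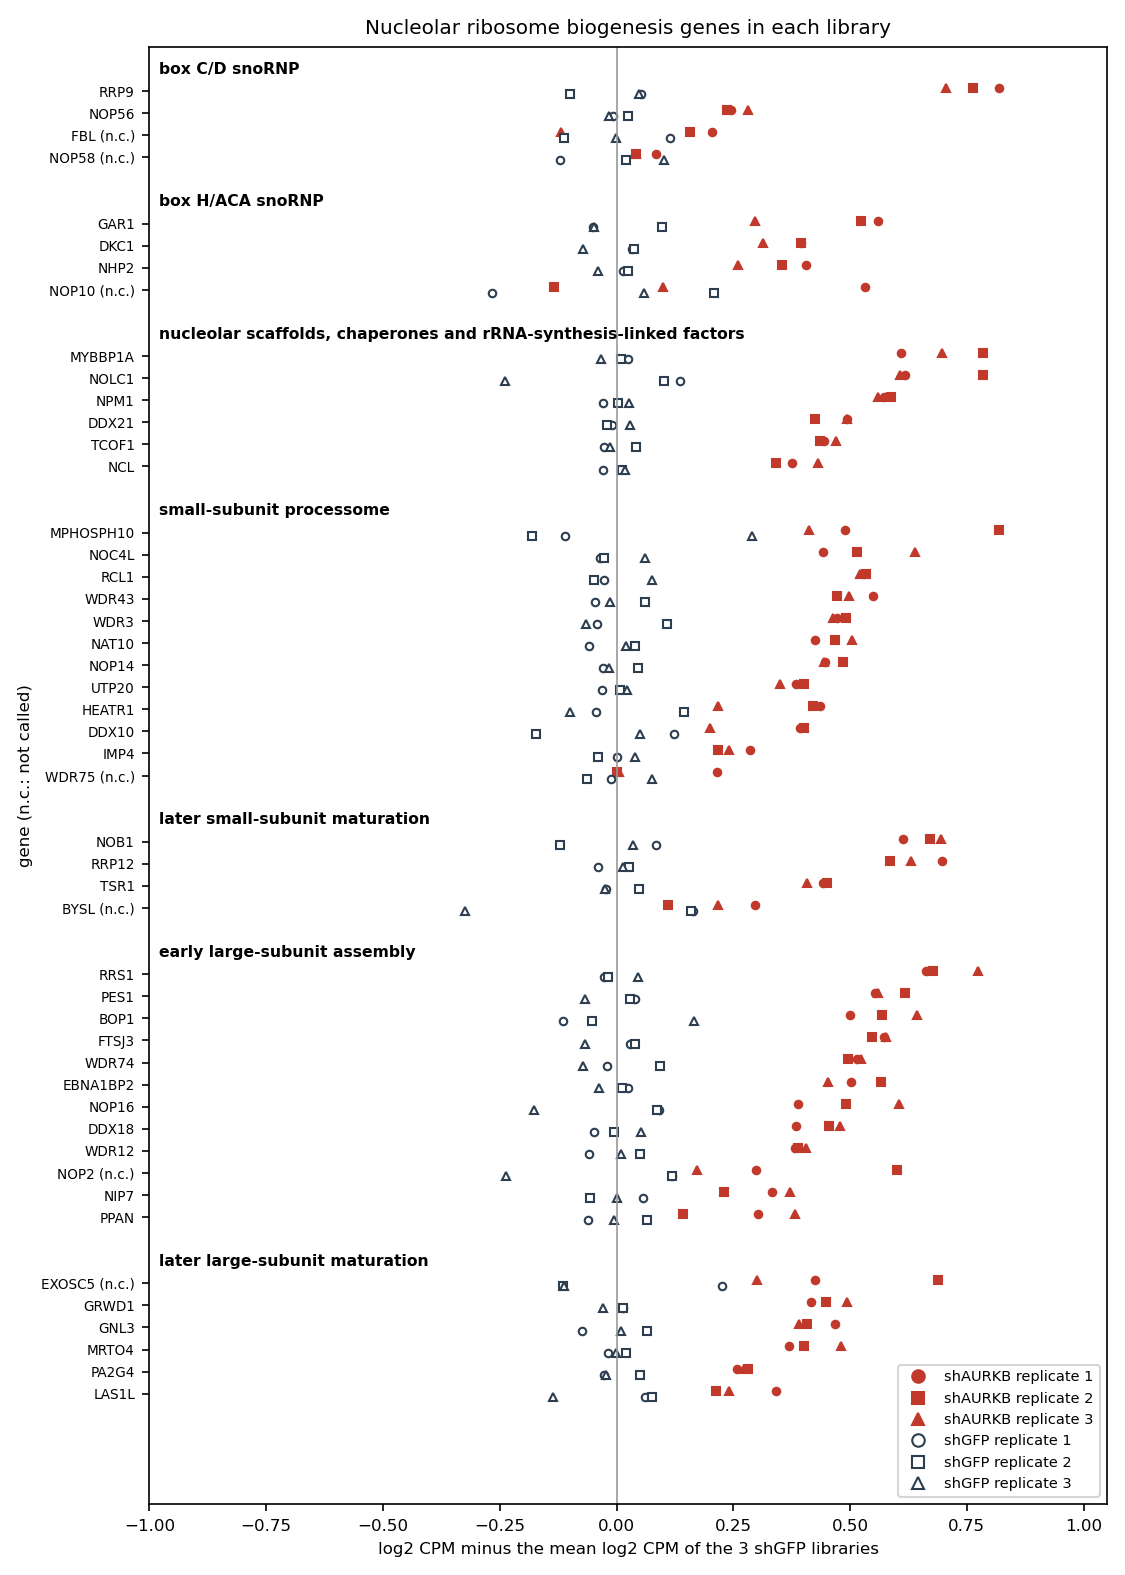
Level of each of the 48 genes in each library, as log2 CPM minus the mean log2 CPM of the 3 shGFP libraries, grouped by step of assembly; filled symbols are shAURKB and open symbols shGFP libraries. In 43 genes all filled symbols lie to the right of all open ones, and the 7 marked n.c. were not called.

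Among the box C/D snoRNP proteins the change was uneven, with 2 of 4 called higher and a median log2 fold change of 0.17. That median was 0.08 with cyclic loess normalization and 0.11 on the log2(FPKM + 1) scale. RRP9, the protein specific to the U3 snoRNP (ENSG00000114767, GRCh38 chromosome 3, 51933430 to 51941941), had 75.9, 73.1 and 70.3 CPM in shAURKB replicates 1 to 3, against 44.6, 40.2 and 44.5 CPM in shGFP replicates 1 to 3. Its log2 fold change of 0.76 ± 0.07 (SE; edgeR adjusted p = 6.69e-04) was the largest of the 48 genes. NOP56, a core scaffold of every box C/D particle, had 348, 345 and 356 CPM in shAURKB libraries, against 291, 298 and 290 CPM in shGFP libraries. The arms did not overlap, and the rise was 0.25 ± 0.03 (edgeR adjusted p = 2.49e-03). NOP58, the partner scaffold related to NOP56, had 196, 191 and 191 CPM in shAURKB libraries, against 170, 188 and 199 CPM in shGFP libraries. FBL, fibrillarin, the methyltransferase of the same particle, had 246, 239 and 197 CPM in shAURKB libraries, against 231, 198 and 213 CPM in shGFP libraries. Both sets overlap, and neither gene was called (log2 fold change 0.05 ± 0.06 and 0.09 ± 0.10, edgeR adjusted p = 0.568 and 0.559). Under cyclic loess normalization their values were -0.031 and -0.0042.

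The 4 box H/ACA proteins form the pseudouridylating particle, and 3 of them rose, with a median over the 4 of 0.35. GAR1 had 76.4, 74.4 and 63.6 CPM in shAURKB libraries, against 50.02, 55.4 and 50.07 CPM in shGFP libraries, a log2 fold change of 0.46 ± 0.09 (edgeR adjusted p = 0.0103). DKC1, dyskerin, the pseudouridine synthase and the gene of X-linked dyskeratosis congenita, had 198, 198 and 187 CPM in shAURKB libraries, against 154, 154 and 143 CPM in shGFP libraries. Every DKC1 value in shAURKB cells was above every value in shGFP cells (0.37 ± 0.05, edgeR adjusted p = 2.94e-03), as was true of NHP2 (0.34 ± 0.05, edgeR adjusted p = 4.98e-03). NOP10, the smallest protein of the particle, had 50.9, 32.1 and 37.7 CPM in shAURKB libraries, against 29.3, 40.7 and 36.7 CPM in shGFP libraries. Its libraries overlap widely, and the value of 0.18 ± 0.19 was not called (edgeR adjusted p = 0.534) and stood at -0.022 without shAURKB replicate 1.

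All 6 genes of nucleolar scaffolds, chaperones and factors tied to rRNA synthesis rose, with a median of 0.52. MYBBP1A, a nucleolar MYB-binding protein that acts in rRNA synthesis and processing, had 164, 185 and 174 CPM in shAURKB libraries, against 109, 108 and 105 CPM in shGFP libraries. Its rise was 0.70 ± 0.05 (edgeR adjusted p = 5.29e-04). NOLC1, or Nopp140, a phosphoprotein that shuttles snoRNPs, had 439, 493 and 436 CPM in shAURKB libraries, against 314, 307 and 243 CPM in shGFP libraries (0.66 ± 0.10, edgeR adjusted p = 5.48e-03). The arms do not overlap, although shGFP replicate 3 lies well below the other 2 controls. NCL, nucleolin, which binds the rRNA precursor, had 1701, 1661 and 1768 CPM in shAURKB libraries, against 1284, 1322 and 1328 CPM in shGFP libraries. At 0.38 ± 0.03 (edgeR adjusted p = 6.33e-04) NCL had the smallest change of the 6.

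NPM1, nucleophosmin, a nucleolar chaperone, had 1042, 1053 and 1032 CPM in shAURKB libraries, against 686, 702 and 713 CPM in shGFP libraries. Its rise of 0.57 ± 0.03 had the smallest adjusted p of the 48 genes (edgeR, 1.36e-04). The table lists 45 processed copies of NPM1, of which 26 had reads, and how reads shared with them were counted is not stated. NPM1P27 held reads equal to 31.1% of those of NPM1 and had a log2 fold change of 0.56 ± 0.05 (edgeR adjusted p = 6.78e-04), so NPM1 and this copy moved by like amounts and their reads may be shared. TCOF1, treacle, a partner in rRNA gene transcription mutated in Treacher Collins syndrome, rose by 0.45 ± 0.04, and the helicase gene DDX21 by 0.47 ± 0.03 (edgeR adjusted p = 5.85e-04 and 3.74e-04).

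**Figure D3:**
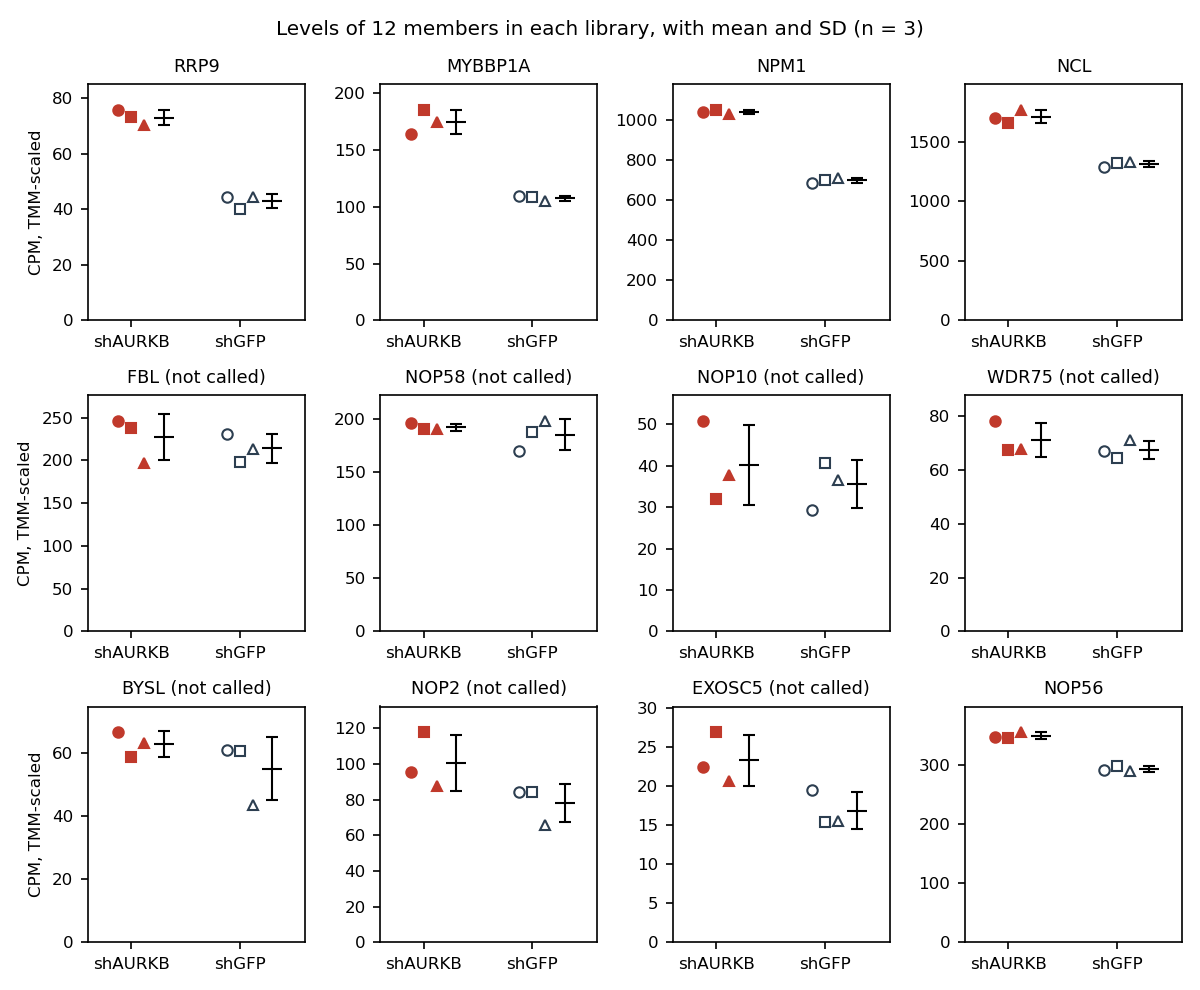
CPM of 12 of the genes in each library on axes that start at 0, with the mean and SD of each arm (n = 3) as bars. RRP9, MYBBP1A, NPM1, NCL and NOP56 separate by arm, while the libraries of FBL, NOP58, NOP10, WDR75 and BYSL overlap; NOP2 and EXOSC5 do not overlap but vary within each arm.

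In the small-subunit processome, the large particle on the nascent precursor that makes the first 18S cuts, 11 of 12 genes rose, with a median of 0.46. MPHOSPH10, which joins IMP3 and IMP4 on the U3 snoRNP, had 65.9, 82.8 and 62.5 CPM in shAURKB libraries, against 43.5, 41.4 and 57.4 CPM in shGFP libraries. The arms do not overlap, but shAURKB replicate 2 and shGFP replicate 3 stand above their groups (0.57 ± 0.15, edgeR adjusted p = 0.0386). NOC4L, the partner of NOP14, had 47.5, 50.02 and 54.5 CPM in shAURKB libraries, against 34.2, 34.4 and 36.5 CPM in shGFP libraries (0.53 ± 0.07, edgeR adjusted p = 3.50e-03). RCL1, a U3-associated factor related to RNA cyclases, had the lowest level per kilobase of exon of the 48 genes and was tight within each arm. It had 29.9, 29.9 and 29.7 CPM in shAURKB libraries, against 20.3, 19.99 and 21.8 CPM in shGFP libraries (0.53 ± 0.07, edgeR adjusted p = 2.92e-03).

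The UTP-A proteins, the first to bind the precursor and linked to its transcription, split. WDR43 rose by 0.51 ± 0.04 and HEATR1 by 0.36 ± 0.08 (edgeR adjusted p = 7.44e-04 and 0.0231). WDR75 of the same complex had 78.3, 67.5 and 67.7 CPM in shAURKB libraries, against 66.9, 64.5 and 71.1 CPM in shGFP libraries. Its arms overlap, and at 0.08 ± 0.08 it was the only processome gene that was not called (edgeR adjusted p = 0.517). The remaining risers were WDR3 of the UTP-B complex (0.47), the 18S acetyltransferase gene NAT10 (0.47), NOP14 (0.46), UTP20 (0.38), the helicase gene DDX10 (0.33) and IMP4 (0.25).

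The 4 genes of later small-subunit maturation had a median of 0.54, with 3 called higher. NOB1, the endonuclease that makes the final 3' end of 18S rRNA, had 104, 108 and 110 CPM in shAURKB libraries, against 71.9, 62.3 and 69.5 CPM in shGFP libraries (0.66 ± 0.07, edgeR adjusted p = 1.20e-03), with part of its exons shared with an antisense gene that also rose. RRP12, an export factor of pre-40S particles, had 96.4, 89.2 and 92.1 CPM in shAURKB libraries, against 57.9, 60.6 and 60.1 CPM in shGFP libraries (0.64 ± 0.05, edgeR adjusted p = 6.11e-04). In both genes the arms lie far apart compared with the spread within them. TSR1, a GTPase-like pre-40S factor, rose by 0.43 ± 0.04 (edgeR adjusted p = 9.67e-04). BYSL, bystin, needed for pre-40S processing, had 66.9, 58.8 and 63.3 CPM in shAURKB libraries, against 61.1, 60.9 and 43.5 CPM in shGFP libraries. The arms overlap, and the value of 0.19 ± 0.13 was not called (edgeR adjusted p = 0.341).

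Early large-subunit assembly held 12 genes, of which 11 rose, with a median of 0.50. RRS1, which brings the 5S particle to the pre-60S subunit with RPF2, had 87.6, 88.4 and 94.6 CPM in shAURKB libraries, against 54.3, 54.6 and 57.1 CPM in shGFP libraries (0.70 ± 0.06, edgeR adjusted p = 5.29e-04). PES1, pescadillo, had 137, 143 and 138 CPM in shAURKB libraries, against 96.1, 95.4 and 89.2 CPM in shGFP libraries (0.58 ± 0.05, edgeR adjusted p = 6.69e-04). Its partners in the PES1-BOP1-WDR12 complex, BOP1 and WDR12, rose by 0.57 ± 0.08 and 0.39 ± 0.05 (edgeR adjusted p = 3.75e-03 and 2.50e-03). PPAN, a pre-60S factor, changed least of the 12: it had 76.0, 68.0 and 80.3 CPM in shAURKB libraries, against 59.1, 64.4 and 61.4 CPM in shGFP libraries (0.28 ± 0.08, edgeR adjusted p = 0.0376). NOP2, a methyltransferase of 28S rRNA, had 95.6, 118 and 87.7 CPM in shAURKB libraries, against 84.5, 84.4 and 66.0 CPM in shGFP libraries. The arms do not overlap but the spread is wide, and 0.36 ± 0.14 was not called (edgeR adjusted p = 0.104). The other risers were the methyltransferase gene FTSJ3 (0.56), WDR74 (0.51), EBNA1BP2 (0.51), NOP16 (0.49), the helicase gene DDX18 (0.44) and NIP7 (0.31).

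In later large-subunit maturation 5 of 6 genes rose, with a median of 0.42. GRWD1, a chaperone of a ribosomal protein, had 114, 117 and 120 CPM in shAURKB libraries, against 86.3, 86.3 and 83.8 CPM in shGFP libraries (0.45 ± 0.05, edgeR adjusted p = 1.24e-03). GNL3, the GTPase nucleostemin, had 176, 169 and 167 CPM in shAURKB libraries, against 121, 133 and 128 CPM in shGFP libraries (0.42 ± 0.05, edgeR adjusted p = 2.15e-03). LAS1L, the nuclease that cuts the internal spacer between 5.8S and 28S rRNA, had 112, 102 and 105 CPM in shAURKB libraries, against 92.3, 93.2 and 80.5 CPM in shGFP libraries. All its shAURKB values exceed the controls, by a narrow margin (0.26 ± 0.07, edgeR adjusted p = 0.0389). EXOSC5, a subunit of the exosome ring that trims 5.8S rRNA, had 22.4, 26.9 and 20.6 CPM in shAURKB libraries, against 19.5, 15.4 and 15.5 CPM in shGFP libraries. The arms do not overlap, and at 0.47 ± 0.14 its edgeR adjusted p of 0.050004 was just above the threshold. MRTO4, a pre-60S factor at the place of the ribosomal stalk, rose by 0.42 ± 0.05 and the growth regulator gene PA2G4 by 0.27 ± 0.03 (edgeR adjusted p = 2.13e-03 and 2.18e-03).

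**Figure D4:**
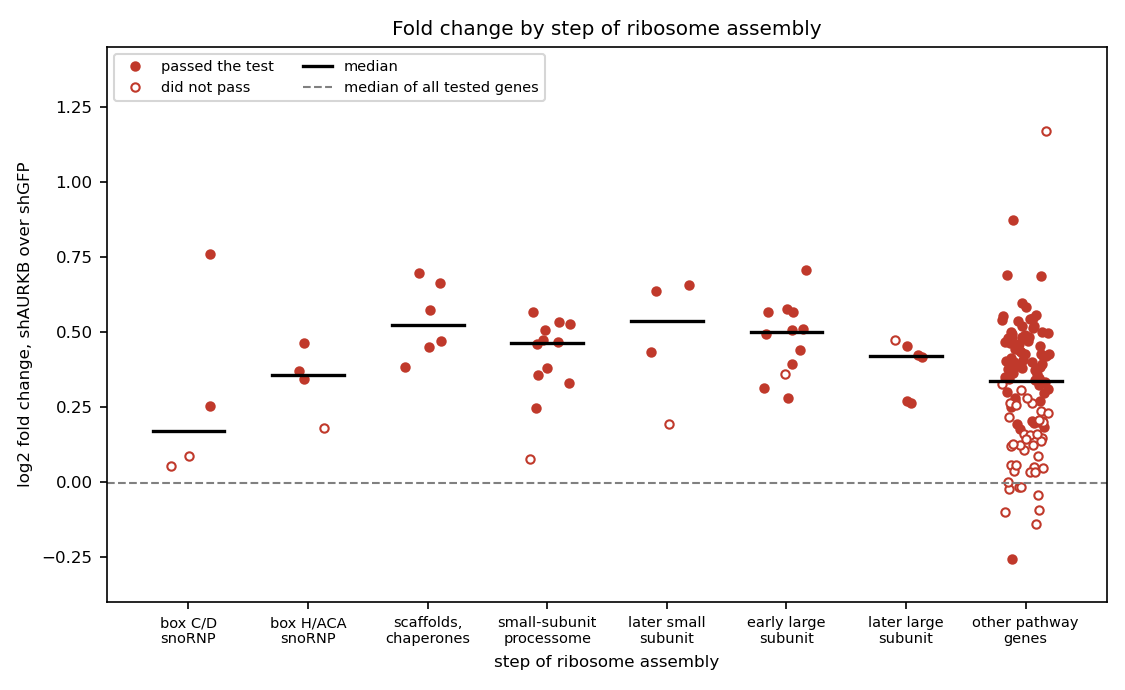
Log2 fold change of each gene, shAURKB over shGFP, by step of ribosome assembly and for 112 other ribosome biogenesis genes; filled points passed the test, open points did not, the black bar is the median of a step and the dashed line the median of all tested genes (-0.0042). Step medians run from 0.17 for box C/D snoRNP proteins (0.08 with cyclic loess) to 0.54 for later small-subunit maturation (0.46 with cyclic loess).

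Subunits of 1 particle can shift against each other, so the ratio of FPKM was taken for all 18 pairs within the box C/D, box H/ACA, PES1-BOP1-WDR12 and UTP-A complexes. A ratio needs no scaling between libraries. Its change between arms does not depend on gene length. With 3 libraries an arm the exact 2-sided permutation test cannot give less than p = 0.10, which 7 pairs reached with no overlap (Benjamini-Hochberg adjusted p = 0.257 over the 18 pairs). No pair could therefore pass the test, and the differences are given as values. The log2 ratio to RRP9, shAURKB minus shGFP, differed by -0.68 for FBL, -0.71 for NOP58 and -0.51 for NOP56, with no overlap of the arms; these 3 pairs share RRP9. For WDR43 over WDR75 the difference was 0.43, again with no overlap. For DKC1 over NHP2 it was 0.03, with overlapping arms (exact permutation p = 0.4). The arms overlapped in all 6 box H/ACA pairs, which does not show that their ratios were the same.

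NPM1 and NCL led the genes by level per length in both arms. Per kilobase of annotated exon (GENCODE 29), NPM1 stood at 272 ± 2.72 CPM in shAURKB cells and 183 ± 3.55 CPM in shGFP cells, and NCL at 247 ± 7.81 CPM in shAURKB cells and 189 ± 3.42 CPM in shGFP cells (SD, n = 3 each). Per kilobase, NPM1 thus stood above NCL in shAURKB cells and below it in shGFP cells. In the deposited FPKM, NCL stood above NPM1 in both arms. The values were 167 against 155 in shAURKB cells and 133 against 108 in shGFP cells. The order of this pair therefore turned with the length used in shAURKB cells alone. Reads counted for the NPM1 copies were not added to these levels. Whether the NPM1 count itself holds reads from the copies is not known. At the other end RCL1 had 7.08 ± 0.03 CPM per kilobase in shAURKB cells and 4.91 ± 0.23 in shGFP cells. These levels rest on all annotated exons of a gene.

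Most of the 112 other ribosome biogenesis genes, which are not among the 48, rose too. Their lists were also chosen with earlier results of these data known, so they give no independent check. All 112 were tested, and 72 rose, 1 fell and 39 were not called, with a median of 0.34. Of 40 small-subunit factors 30 rose and 1 fell (median 0.41), and of 46 large-subunit factors 35 rose (median 0.37). Of 11 snoRNP assembly factors 4 rose (median 0.18), and of 15 exosome subunits and trimming nucleases 3 rose (median 0.21). The same call was made for 12.5% of all tested genes and 17.9% of those with at least 10 CPM, so the count of exosome subunits and nucleases was near the background; differences between the lists were not tested.

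PNO1, the pre-40S partner of NOB1, had 50.3, 48.3 and 44.9 CPM in shAURKB libraries, against 24.6, 26.1 and 27.4 CPM in shGFP libraries, and its rise of 0.87 ± 0.07 exceeded that of any of the 48 genes (edgeR adjusted p = 6.69e-04). RPF2, the partner of RRS1, rose by 0.69 ± 0.07, the pre-40S kinase gene RIOK1 by 0.69 ± 0.05 and the helicase gene DDX31 by 0.60 ± 0.09 (edgeR adjusted p = 1.48e-03, 5.48e-04 and 4.78e-03). Among assembly factors RUVBL2, an ATPase that helps load snoRNPs, rose by 0.40 ± 0.05 and ZNHIT6 by 0.38 ± 0.08 (edgeR adjusted p = 2.82e-03 and 0.016). Among the trimming factors the exosome cofactor gene MPHOSPH6 rose by 0.41 ± 0.09 and the exonuclease gene ISG20L2 by 0.39 ± 0.07 (edgeR adjusted p = 0.021 and 0.011). UTP23, a processome factor, was the single gene that fell, with 52.8, 52.8 and 48.5 CPM in shAURKB libraries against 62.6, 63.3 and 58.5 CPM in shGFP libraries (-0.26 ± 0.06, edgeR adjusted p = 0.0261). That call was lost without any 1 library other than shGFP replicate 3, with adjusted p up to 0.0836 over the alternatives. SENP3, named for its size after its values were seen, had 115, 106 and 116 CPM in shAURKB libraries, against 31.05, 91.4 and 27.4 CPM in shGFP libraries. It was not called (1.17 ± 0.43, edgeR adjusted p = 0.0935), and shGFP replicate 2 was far above the other controls.

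Calls of 7 genes depended on a single library or on the processing. Of the 41 risers, 36 were called whichever single library was left out. HEATR1 lost its call without shAURKB replicate 1 or 2 or shGFP replicate 1 or 3, MPHOSPH10 without any library but shGFP replicate 3, DDX10 without any but shAURKB replicate 3, PPAN without any but shAURKB replicate 2, and LAS1L without any 1 library. Adjusted p over the alternatives reached 0.111, 0.134, 0.186, 0.133 and 0.153 for these 5 genes in that order. All 5 also lost their calls with cyclic loess and in each FPKM fit, and MPHOSPH10, DDX10, PPAN and LAS1L with upper-quartile scaling and with the replicate block. DDX10 and PPAN were not called either with no filter on low counts. NIP7 and NOP16 lost theirs with FPKM and no filter alone. Without shGFP replicate 1, the library with 17.8 CPM of COL1A2, 37 of the 48 rose, the median was 0.44, and EXOSC5 passed (edgeR adjusted p = 0.0376).

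Overlapping genes are the other limit, since the strand setting of the counting is not given and reads of antisense partners cannot be told apart. Of the 48 genes, 20 share exonic bases with another gene of at least 100 reads. Of these 19 rose (median 0.45), and of the other 28 genes 22 rose (median 0.45). The 28 are not free of overlap, since some share exonic bases with a gene of fewer reads or without a count. WDR3 shares 1759 bases with SPAG17, which had 42 reads, and NOP2 shares 2550 with AC006064.6, which had no count. The partner's own change differed from case to case: FTSJ3 shares exons with PSMC5, which rose by 0.50 (edgeR adjusted p = 2.90e-03), while NIP7 shares them with COG8 (-0.06, edgeR adjusted p = 0.64) and HEATR1 with LGALS8, which fell by 0.23 (edgeR adjusted p = 0.0461). PPAN has a read-through locus, PPAN-P2RY11, whose reads equal 24.3% of its own, with a log2 fold change of 0.75 that was not called (edgeR adjusted p = 0.114). NOB1 shares 429 exonic bases with AC092115.3, which rose by 0.95 and held reads equal to 20.02% of those of NOB1 (edgeR adjusted p = 2.54e-03). EBNA1BP2 shares 668 with CFAP57, which rose by 0.92 with reads equal to 6.07% (edgeR adjusted p = 0.0107). NOP16 shares exons with HIGD2A and ARL10, whose reads equal 91.9% and 51.1% of its own and which were not called (0.14 and 0.11, edgeR adjusted p = 0.273 and 0.365). The size of the change is therefore uncertain for all 20 genes that share an exon with a gene of at least 100 reads. NOB1, FTSJ3, EBNA1BP2, NOP16, NIP7, HEATR1 and PPAN are among them.

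Genes with and without an E-box both rose. The 19 genes with an E-box had a median log2 fold change of 0.46, with 14 called higher, and the 21 with a window and no E-box a median of 0.38, with 20 called higher. Outside the 48 genes, at 10 CPM or more, 22.6% of 955 genes with an E-box rose, with a median of 0.07, and 17.3% of 6306 without one, with a median of 0.04. These shares are descriptions over genes that share the same 6 libraries.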

How the data were processed

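RNA from 6 CUTLL1 cultures, 3 per arm, was analysed, with groups and replicate numbers from the sample titles. For each Ensembl gene and library the deposited values were a whole-number read count and an FPKM. HISAT2 2.0.4, StringTie 1.3.0, edgeR and GRCh38 (hg38) are named, without roles, per the submitters' processing notes. The strand setting is not given in the sources used here, nor is the treatment of multi-mapped reads. The gene length implied by the authors' FPKM was 1 to 2.99 times the annotated exon union (GENCODE 29), so FPKM levels of different genes are not comparable; FPKM was used for changes in ratios between arms and in 3 alternative fits.

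Genes with low counts were left out (filterByExpr, at a minimum count of 10 and a total of 15). TMM-scaled counts went into edgeR's quasi-likelihood test (edgeR 4.0.16, R 4.3.3), arm as the single term, 2-sided, with Benjamini-Hochberg adjustment over all 14818 tested genes; "called" means an adjusted p below 0.05. The SE of a log2 fold change was derived from this test, as its absolute value divided by the square root of the F statistic. The genes tested held 99.6% to 99.8% of each library's counts. The biological coefficient of variation was 0.127, and chi-square per degree of freedom between replicates was 6.92 to 7.91, so no library copied another. The test was tried on simulated counts first. Alternatives were other scalings, DESeq2 1.42.0, limma 3.58.1 (voom, cyclic loess, and trend on log2(FPKM + 1)), other filters, the replicate number as a block, and each library left out.

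The genes, lists and steps were chosen with earlier results of these data known. Values in every library were given, per step, for the 2 called genes with the largest change, the gene with the smallest change and every gene not called; NPM1, TCOF1, DDX21, RCL1, HEATR1, WDR43, TSR1, BOP1, WDR12, MRTO4, PA2G4 and NHP2 were added after their values were seen. Per list of other biogenesis genes, the 2 called with the largest rise and fall were named. The tables of proteins planned for were not used here.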

Additional observations from a re-analysis of the deposited data

How the results depend on the processing

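The 48 genes were recomputed under 17 alternative fits. None was called lower under any of them, and 34 to 42 were called higher, with 34 of the 41 risers called in all 17. The median log2 fold change of 0.45 was 0.40 with upper-quartile scaling, 0.37 with cyclic loess, 0.37 with log2(FPKM + 1) with or without its filter, 0.40 with log2(FPKM + 0.1) and 0.41 when centred on genes of at least 10 CPM. Upper-quartile scaling lowered the median gene by 0.05. Leaving out genes with any overlap or read-through locus left 12 risers of 16. Leaving out those that share an exon with a gene of 100 reads, an alternative chosen after seeing the data, left 22 of 28. Fewer genes were counted by construction, but the share called differed too. Of the 20 genes left out for a shared exon, 19 rose. The 45 genes with a positive value in every alternative exclude FBL, at -0.0042 with cyclic loess, NOP58, at -0.0015 with upper-quartile scaling, -0.031 with cyclic loess and -0.0050 without shGFP replicate 1, and NOP10, at -0.022 without shAURKB replicate 1. With 1 library left out, MYC ranged over -0.13 to 0.36, NOP58 over -0.0050 to 0.11 and NOP10 over -0.022 to 0.32. NOP2 passed with the replicate block alone (adjusted p = 0.042), and EXOSC5 with RLE scaling, cyclic loess, DESeq2 and without shGFP replicate 1 (adjusted p = 0.0376 to 0.157 over the alternatives). The cause of these shifts was not tested.

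Over all genes, 914 were called higher with FPKM and no filter, against 1847. The number called lower was 998 to 1056 with 1 library left out and 1027 with the replicate block, against 1609. Of the other biogenesis genes, 48 to 74 were called higher, and the 1 called lower was not called with no filter on low counts (0 genes), or, in 5 of 6 cases, with 1 library left out (0 to 1 genes). Libraries with the same replicate number did not deviate together (correlations -0.09 to -0.03), so the numbers were not treated as pairs; the block gave 38 risers among the 48 genes. The smallest change called among the 48 genes at this depth was 0.25 on the log2 scale.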
